A study of Homo sapiens with 3 samples.

Results

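The genes described here encode surface molecules through which an antigen-presenting cell costimulates or restrains T cells, or that mark its maturation. There were 10 of them, chosen by name with earlier results of these data known: CD80, CD86, ICOSLG, CD274, PDCD1LG2, CD276, CD40, SLAMF1, CD83, and LAMP3. They were read from every probe on the arrays that carries one of these names, which gave 15 of 58201 transcript probes and 10 of 43317 gene names. CD80, CD86, CD83, ICOSLG, and LAMP3 had 1 probe each, and the other 5 genes had 2.

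The RNA came from THP-1, a human monocytic leukemia line, turned into macrophage-like cells with the phorbol ester PMA at 100 ng/mL for 24 to 36 h and then kept overnight in fresh medium. The Ctrl cells received the PMA alone, the IMQ cells also received imiquimod, a ligand of Toll-like receptor 7, and the third group received a compound before imiquimod. That compound is written X in the sample name and is read here as DMD, a dimethoxylated benzenoid from the fungus Antrodia cinnamomea, since the treatment text names no other. The samples are labeled 4 h, whereas the general cell culture methods describe a longer imiquimod incubation, and the labels give no dose. Each condition was measured on 1 one-color array, and all 3 arrays shared 1 slide. No difference below therefore has a replicate check, and none was tested. THP-1 is a single transformed line, and its surface proteins were not measured on these arrays.

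T cells need an antigen signal and a second signal from the cell that presents the antigen. CD80 and CD86 give the second signal through CD28, and CTLA-4 competes for both. ICOSLG engages ICOS, whereas CD274 (PD-L1) and PDCD1LG2 (PD-L2) bind the inhibitory receptor PD-1. CD40 works in the other direction, because its ligand on T cells drives the presenting cell to mature through TRAF adaptors and NF-kB. CD83 and LAMP3 (DC-LAMP) are best known as markers of mature dendritic cells, and Toll-like receptor ligands raise many of these molecules on dendritic cells and macrophages.

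Values are normalized intensity, the brightness of a probe after the authors' quantile normalization, and differences are on the log2 scale. The error given with a difference is the spread (SD) that repeated spots of one probe on the same array imply at that brightness. It covers measurement error within an array, not differences between cultures. A probe was called well above background by the scanner software, and between 66.6% and 72.0% of probes passed on the 3 arrays. Of the 15 probes, 12 passed on all 3 arrays and 3 passed on none, so 9 of the 10 genes were measured in every comparison. No spot of these probes was saturated or marked as an outlier (0 of each). Brightness also depends on the probe sequence, so levels were compared between arrays but not between genes.

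Macrophage markers were well above background on all 3 arrays for 10 of 10 genes found. Their summed intensity, mostly CSF1R, was 323400 on Ctrl, 248612 on IMQ, and 226411 on IMQ+DMD. Markers of other blood cells were not absent. Of 8 dendritic cell markers, 5 passed on every array and CLEC9A on none, and their summed intensity was 1684, 1079, and 1237 in the same order. The sums for 8 T cell markers, mostly CD4, lay between 10584 and 12827. Those for 5 B cell markers, mostly CD79A, lay between 3899 and 4798, and those for 5 NK cell markers, mostly GNLY, between 8512 and 9351. KLRD1 was above background on no array. Single markers moved within these sums. NCAM1 of the NK list read 35.14 on Ctrl and 296.9 on IMQ, a log2 difference of 3.08, while FLT3 (-1.89), CD1A (-1.46), and CD1C (-1.26) of the dendritic cell list, CD163 (-1.22) of the macrophage list, and PDGFRA (-1.09) of the list below were lower with IMQ. The epithelial and fibroblast list of 6 summed to between 379 and 682, with EPCAM and COL1A2 above background on none. Each sum adds probes of different genes, so sums can be compared between arrays but not between cell types. The part of these markers in the results was not tested.

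The costimulatory and maturation genes were higher on the IMQ array than on the Ctrl array. Of the 9 measured, 6 were at least 2-fold higher (LAMP3, CD86, CD83, CD40, CD80, and ICOSLG) and 0 were at least 2-fold lower. Among all 31846 genes measured in this comparison, 4.17% were at least 2-fold higher and 3.59% at least 2-fold lower. The median difference of the 9 genes was 1.25, against -0.02 over all genes. Because the genes were chosen with earlier results of these data known, this contrast is a description and not an independent check. On the array with DMD before imiquimod, these genes, like most genes measured, lay within 2-fold of their IMQ values. None of the 9 was 2-fold higher or lower than on the IMQ array (0 of each). The shares over all 31694 genes were 1.18% and 1.24%, so 0 of 9 is near them. With 75th percentile scaling LAMP3 passed 2-fold, at -1.03. Between IMQ+DMD and IMQ, LAMP3 had the lowest difference and CD274 the highest. This held under the reported values and the 4 other array treatments shown in the plot of scalings.

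**Figure D1:**
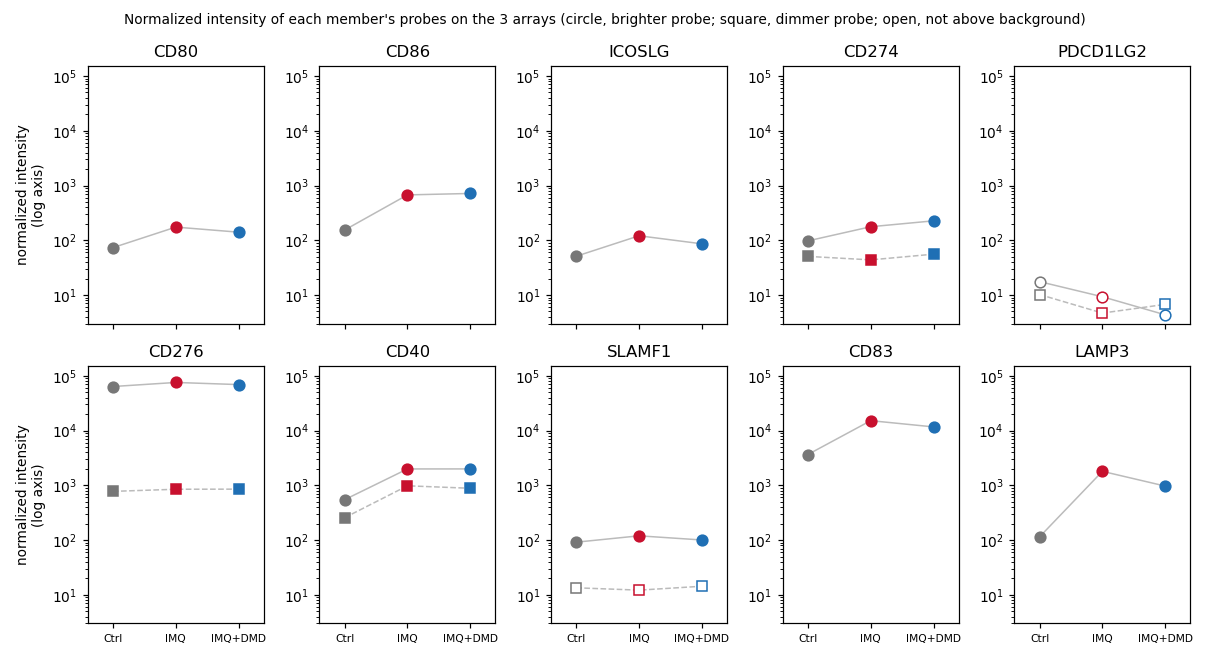
Normalized intensity (log axis) of every probe of the 10 genes on the Ctrl, IMQ, and IMQ+DMD arrays, 1 point per array with no replicates. Circles and squares are the brighter and the dimmer probe of a gene, and open symbols were not well above background. LAMP3 goes from 114.2 to 1801 between Ctrl and IMQ, whereas both CD276 probes are nearly level and all points of PDCD1LG2 are open.

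LAMP3, a lysosomal membrane glycoprotein of mature dendritic cells, had the largest difference of the 9 genes. Its probe (hg19 chr3:182840063-182840122, minus strand) read 114.2 on Ctrl, 1801 on IMQ, and 969 on IMQ+DMD. The IMQ value was 15.8-fold higher than Ctrl, a log2 difference of 3.98 (technical SD 0.17), which ranked 39 of 31846 genes from the top. With DMD the value was 1.86-fold lower than with IMQ alone, a log2 difference of -0.89 (technical SD 0.07), and it ranked 577 of 31694 from the bottom. It was still 8.49-fold higher than on the Ctrl array. The genes with differences closest to those of LAMP3 were sought by straight-line distance over the differences IMQ minus Ctrl and IMQ+DMD minus IMQ among 19753 genes on these 3 arrays. The first 3 were RGS16 (distance 0.38), a regulator of G protein signaling, INHBA (0.47), the activin A subunit, and IL7R (0.47), the interleukin 7 receptor chain.

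CD83, an immunoglobulin-like surface protein that stabilizes CD86 and MHC class II, was also higher with IMQ. Its probe (chr6:14136689-14136748, plus strand) read 3655 on Ctrl, 15183 on IMQ, and 11667 on IMQ+DMD. The IMQ value was 4.15-fold higher than Ctrl. With DMD it was 1.30-fold lower than with IMQ alone, a log2 difference of -0.38 with a technical SD of 0.06. Both maturation markers were thus lowest on Ctrl and highest on IMQ.

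CD86 was the B7 ligand with the largest difference. Its probe (chr3:121839246-121839305, plus strand) read 153.5 on Ctrl, 673.6 on IMQ, and 715.7 on IMQ+DMD. The IMQ value was 4.39-fold higher than Ctrl, with a log2 difference of 2.13 (technical SD 0.11). The DMD array differed from IMQ by 0.09 (technical SD 0.07), so the values with and without DMD lay close together and both were far above Ctrl.

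CD80, the other ligand of CD28, was also higher on the IMQ array than on Ctrl. Its probe (chr3:119243684-119243743, minus strand) read 73.27 on Ctrl, 173.9 on IMQ, and 140.4 on IMQ+DMD. The IMQ value was 2.37-fold higher than Ctrl (log2 difference 1.25, technical SD 0.19). With DMD the log2 difference from IMQ was -0.31 (technical SD 0.14), and the value was 1.92-fold above Ctrl.

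ICOSLG, the ligand of ICOS, had nearly the same difference as CD80 between IMQ and Ctrl. Its probe (chr21:45655295-45655354, minus strand) read 51.03 on Ctrl, 120.7 on IMQ, and 86.06 on IMQ+DMD. The IMQ value was 2.37-fold above Ctrl (log2 difference 1.24, technical SD 0.27), and with DMD it was 1.40-fold lower than with IMQ alone (log2 difference -0.49, technical SD 0.24). The latter difference was -0.04 with scaling to spike-in controls. For both CD80 and ICOSLG the call of 2-fold depended on the scaling of the arrays. Their IMQ minus Ctrl differences were as low as 0.55 and 0.51 when the arrays were scaled to spike-in controls, and they were also below 1 with no normalization and with normexp background correction.

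CD40, the receptor for the T cell molecule CD40L, was read by 2 probes. They lie 237 bases apart on the transcript and are shown because they gave nearly the same difference from separate stretches of the mRNA. Both are 60 bases long and are on the plus strand of hg19, at chr20:44757581-44757640 and chr20:44755280-44755339.
CD40 probe 1: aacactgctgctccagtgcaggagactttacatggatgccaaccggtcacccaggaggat
CD40 probe 2: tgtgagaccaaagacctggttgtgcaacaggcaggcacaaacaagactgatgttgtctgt

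Probe 1 read 546.1 on Ctrl, 1992 on IMQ, and 1994 on IMQ+DMD. Probe 2 read 255.8, 980.7, and 883.4 in the same order. The IMQ value was 3.65-fold higher than Ctrl by probe 1 and 3.83-fold higher by probe 2. These differences were 0.07 apart on the log2 scale, less than the technical SD of 0.13 for the gap. Between IMQ+DMD and IMQ, the log2 difference was 0.0016 for probe 1 and -0.15 for probe 2, with a technical SD of 0.07 for each.

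CD274, whose product PD-L1 restrains T cells through PD-1, had 2 probes that differed from each other. Probe 1 (chr9:5468310-5468369, plus strand) read 97.35 on Ctrl, 176.6 on IMQ, and 226.3 on IMQ+DMD. Its IMQ value was 1.81-fold higher than Ctrl, and its value with DMD was 1.28-fold higher than with IMQ alone and 2.33-fold higher than Ctrl. Probe 2 lies 591 bases nearer the start of the transcript (chr9:5465546-5465605, plus strand) and is shown because it did not share the difference between IMQ and Ctrl.
CD274 probe 2: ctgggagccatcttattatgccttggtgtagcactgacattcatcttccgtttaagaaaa

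Probe 2 read 50.73 on Ctrl, 43.81 on IMQ, and 55.70 on IMQ+DMD. Its IMQ minus Ctrl difference was -0.21 with a technical SD of 0.30, where probe 1 gave 0.86 with a technical SD of 0.19. The gap of 1.07 between the probes was larger than the technical SD of 0.36 for that gap. For IMQ+DMD minus IMQ the probes gave 0.36 and 0.35. Averaged over both probes, the IMQ+DMD minus Ctrl difference of CD274 was 0.68, below 2-fold. By probe 1 alone that difference was 1.22 as reported, but 0.85 with no normalization, 0.89 with scaling to spike-in controls, and 0.87 with normexp. The IMQ minus Ctrl difference of probe 1 was 0.18 with scaling to spike-in controls.

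PDCD1LG2, the other ligand of PD-1, was not well above background with either probe on any array. Probe 1 (chr9:5557692-5557751, plus strand) read 17.55 on Ctrl, 9.295 on IMQ, and 4.342 on IMQ+DMD, and probe 2 read 10.21, 4.677, and 6.740. Probe 2 is 60 bases long but its ends lie on either side of an intron, at chr9:5549556-5557628. No fold is given for values at background. The probes are shown so that the part of the transcript they could detect is known.
PDCD1LG2 probe 1: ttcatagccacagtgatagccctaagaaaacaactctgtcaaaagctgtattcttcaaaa
PDCD1LG2 probe 2: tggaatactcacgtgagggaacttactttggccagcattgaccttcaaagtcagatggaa

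CD276 (B7-H3), a B7 family protein mainly described as inhibitory, was nearly level. Probe 1 (chr15:74006791-74006850, plus strand) read 63782 on Ctrl, 75698 on IMQ, and 69205 on IMQ+DMD. The pixels of its spot were more uneven than those of most probes within 1.5-fold of its brightness, at the 99.3 to 99.8 percentile of those probes on the 3 arrays. Probe 2 (chr15:73996699-73996758) read 775.5, 847.8, and 852.2 in the same order. The IMQ minus Ctrl differences were 0.25 and 0.13, and the first turned to -0.14 with scaling to spike-in controls.

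SLAMF1, a receptor that binds itself on neighboring immune cells, was also within 2-fold on all arrays. Probe 1 (chr1:160580000-160580059, minus strand) read 91.54 on Ctrl, 119.6 on IMQ, and 100.4 on IMQ+DMD, a difference of 0.39 between IMQ and Ctrl with a technical SD of 0.24. The difference turned to -0.33 with scaling to spike-in controls and was also below 0 with no normalization. Probe 2 (chr1:160607067-160607126) read 13.44, 12.18, and 14.35 and was not well above background on any array.

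**Figure D2:**
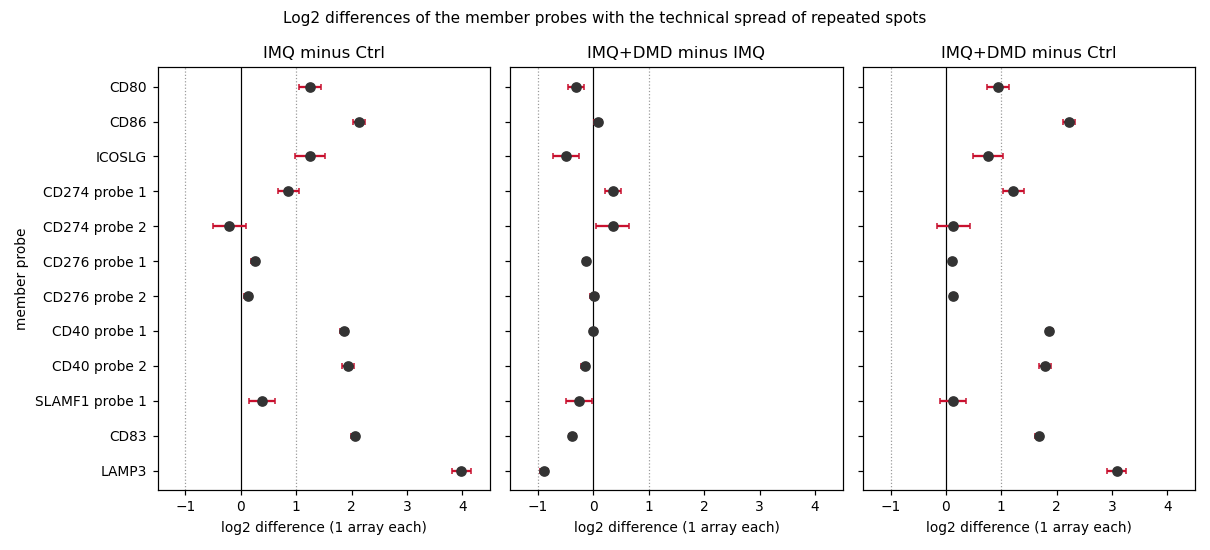
Log2 differences of the 12 measured probes between pairs of arrays, 1 array per condition. Points are the differences, bars the technical SD from repeated spots, and dotted lines mark 2-fold. In IMQ minus Ctrl 7 probes lie beyond 2-fold higher, and in IMQ+DMD minus IMQ 0 do.

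Grouped by role, the 3 stimulatory B7 ligands (CD80, CD86, and ICOSLG) were each at least 2-fold higher with IMQ than in Ctrl, as were both maturation markers and CD40. The 2 measured inhibitory ligands, CD274 and CD276, were not (0 of 2). Among all genes measured 4.17% were at least 2-fold higher, so 0 of 2 is near that share. Counts of so few genes, chosen with earlier results known, do not separate the roles. With no normalization, with scaling to spike-in controls, and with normexp, only 1 of the 3 stimulatory ligands, CD86, was at least 2-fold higher. With DMD, the median difference from IMQ was -0.31 for the stimulatory B7 ligands, -0.64 for the maturation markers, and 0.11 for the inhibitory ligands. With scaling to spike-in controls the first turned to 0.086, and the others were -0.57 and 0.32. The 2 inhibitory ligands went opposite ways under the reported values, CD274 at 0.36 and CD276 at -0.13. The groups hold 3 genes at most, so these medians describe single arrays and were not tested against each other. The comparisons IMQ minus Ctrl and IMQ+DMD minus IMQ share the IMQ array, so a high or low reading there moves them in opposite directions.

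Set against Ctrl, the IMQ+DMD array had 5 of 9 genes at least 2-fold higher (LAMP3, CD86, CD40, CD83, and CD274) and 0 at least 2-fold lower. The count was 4, without CD274, with no normalization, with scaling to spike-in controls, with normexp, and with the mean of all probes. Among all 33704 genes measured, the shares were 3.04% and 4.82%. The median difference was 1.22, against 0.05 over all genes. CD86 was 4.66-fold above Ctrl, and CD83 had a log2 difference of 1.68. CD80 and ICOSLG, which were past 2-fold with IMQ alone, were 1.92-fold and 1.69-fold above Ctrl. This comparison shares the Ctrl array with the first.

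**Figure D3:**
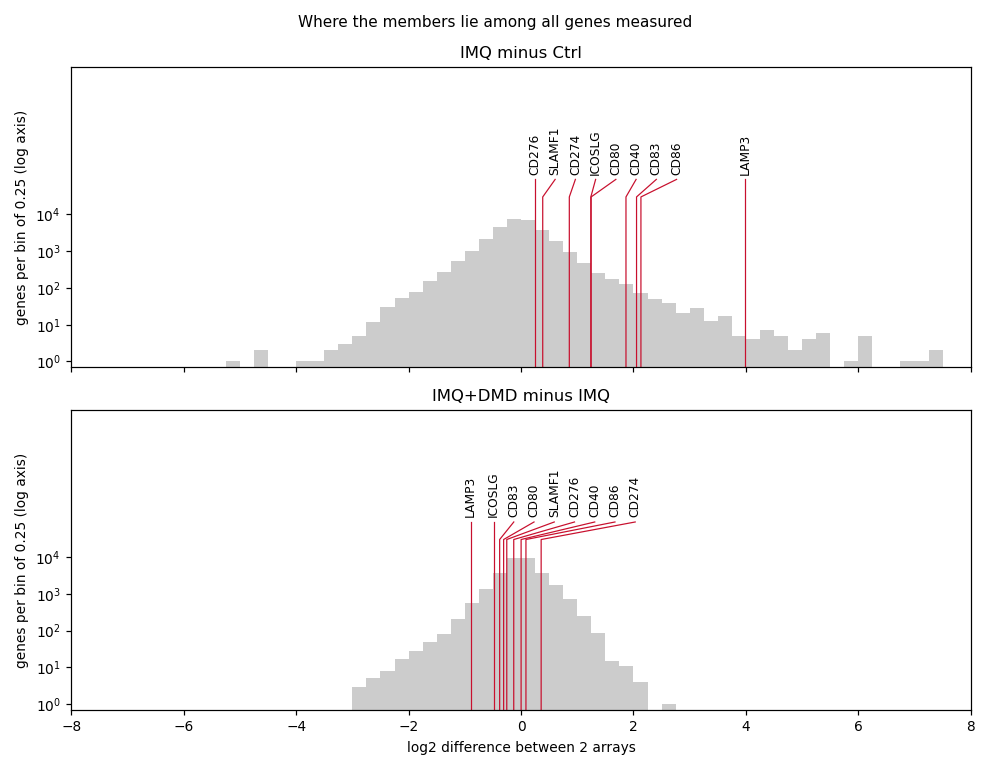
Number of genes per bin of log2 difference (log axis, 1 array per condition) for IMQ minus Ctrl (top) and IMQ+DMD minus IMQ (bottom), with red lines at the 9 measured genes. In the top panel LAMP3 stands at 3.98 and CD86, CD83, and CD40 between 1.87 and 2.13, whereas in the bottom panel all 9 lie between -0.89 and 0.36.

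The wider families of these molecules did not share one direction. Over all genes measured, 4.17% were at least 2-fold higher with IMQ than in Ctrl and 3.59% at least 2-fold lower. Of 10 other B7 and butyrophilin genes measured, 1 was at least 2-fold higher with IMQ than in Ctrl and 1 at least 2-fold lower. With scaling to spike-in controls the counts were 0 and 4, where 1.41% of all genes measured were higher and 23.05% lower. The higher one was BTN2A1, a butyrophilin involved in gamma delta T cell recognition, with a log2 difference of 1.03, which was 0.47 with scaling to spike-in controls. The lower one was VSIR (C10orf54 on the arrays), the inhibitory ligand VISTA, which read 2006 on Ctrl, 891.6 on IMQ, and 856.2 on IMQ+DMD, a log2 difference of -1.17. Of 9 other SLAM family genes and adaptors measured, 0 were 2-fold higher or lower, near the shares of 4.17% and 3.59%, and their median was -0.42. In IMQ+DMD minus Ctrl the adaptor gene SH2D1B was at least 2-fold lower (1 of 9), at a bound of -1.32 because it was at background with DMD, and the bound was as small as -0.53 over the other treatments of the arrays, with 0 of 9 lower with normexp. With scaling to spike-in controls 6 of the 9 were at least 2-fold lower with IMQ than in Ctrl. Under that scaling 23.05% of all genes measured were also at least 2-fold lower, and the median over all genes was -0.66. Of 6 T cell partners of these molecules, 4 were measured against Ctrl with IMQ and against IMQ with DMD, namely CD28, ICOS, PDCD1, and the CD40 ligand CD40LG. Of these, 0 of 4 were past 2-fold in either direction, which is near the shares over all genes. Those shares were 1.18% and 1.24% for IMQ+DMD minus IMQ. CTLA4 was well above background on no array, and BTLA was not on the IMQ array. CD40LG, at -0.67 between IMQ and Ctrl and 0.95 between IMQ+DMD and IMQ, reached -1.48 and 1.48 under other scalings, which is past 2-fold.

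Genes of the CD40 signaling pathway were higher with IMQ in 6 of 12 cases and lower in 0 by the same 2-fold rule, with a median of 1.08. Among all genes measured, 4.17% were higher and 3.59% lower. The largest differences were those of BIRC3 (4.42), a ubiquitin ligase bound to TRAF2, TRAF1 (2.61), an adaptor, TNFAIP3 (1.93), the deubiquitinase A20, and RELB (1.84), the NF-kB subunit of the alternative pathway. BIRC3 read 87.5 on Ctrl, 1869 on IMQ, and 1314 on IMQ+DMD. None of the 12 was 2-fold different between IMQ+DMD and IMQ (0 of each direction), which is near the shares of 1.18% and 1.24% over all genes. With DMD, 6 of the 12 were at least 2-fold above Ctrl, against 3.04% of all genes. With scaling to spike-in controls, 4 of the 12 were at least 2-fold higher with IMQ than in Ctrl and 1 was at least 2-fold lower. Under that scaling 1.41% of all genes measured were higher and 23.05% lower.

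In a list of 11 genes, transcription factors known to induce B7 genes and CD40 and the kinase JAK2, 5 were at least 2-fold higher with IMQ and 1 was at least 2-fold lower. Over all genes the shares were 4.17% and 3.59%. With scaling to spike-in controls the counts of the list were 4 and 2, where 1.41% of all genes measured were higher and 23.05% lower. REL read 442.7 on Ctrl, 2629 on IMQ, and 2236 on IMQ+DMD, a log2 difference of 2.57, and NFKB1 differed by 1.54. NFKB2 read 261.7, 739.4, and 728.5. RELB, with a difference of 1.84, and NFKB2 are also in the CD40 signaling list, so the 2 counts overlap. IRF4, a factor of dendritic and plasma cells, was at background on Ctrl and read 81.6 on IMQ and 29.1 on IMQ+DMD. By the reported values its difference was at least 2.31 between IMQ and Ctrl, a bound that was as small as 1.03 over the other treatments of the arrays. Between IMQ+DMD and IMQ the difference of IRF4 was -1.49, and it was the only gene of the list past 2-fold in that comparison. The latter call was lost with scaling to spike-in controls and with normexp, where 0 of the 11 were 2-fold lower, and the difference was as small as -0.71. IRF8, a factor of the monocyte lineage, was the lower one and read 1811 on Ctrl, 816.9 on IMQ, and 568 on IMQ+DMD.

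The dendritic cell maturation list had 9 of 15 genes at least 2-fold higher with IMQ and 0 lower, with a median of 1.79. The shares over all genes were 4.17% and 3.59%. BIRC3 (4.42), TRAF1 (2.61), and RELB (1.84) of this list are also in the CD40 signaling list, so the counts of the lists are not separate results. With scaling to spike-in controls the counts of the maturation list were 8 and 1, where 1.41% of all genes measured were higher and 23.05% lower. FSCN1, the actin-bundling protein fascin of mature dendritic cells, read 87172 on Ctrl, 50224 on IMQ, and 45682 on IMQ+DMD, a difference of -0.80 that reached -1.23 with that scaling. CCL19 differed by -0.23. FSCN1 and CCL19 were the 2 genes of the list below 0 and are named after their values were seen. CCR7, the lymph node homing receptor, read 81.8 on Ctrl, 12682 on IMQ, and 8379 on IMQ+DMD, a log2 difference of 7.28. IDO1, which degrades tryptophan, read 78.9, 3503, and 1351. The chemokine gene CCL22 was at background on Ctrl and read 198.6 on IMQ and 63.8 on IMQ+DMD. IDO1 and CCL22 were the 2 genes of the list that were at least 2-fold lower with DMD than with IMQ alone, at -1.37 and -1.64. The share of all genes so called was 1.24%. Like LAMP3, CCR7, IDO1, and CCL22 had their highest value on IMQ, but this was not particular to them. By the reported values 13 of the 15 genes of the list were lower with DMD than with IMQ alone.

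Other costimulators of the TNF and adhesion families were past 2-fold higher with IMQ in 2 of 11 cases and lower in 1. The shares over all genes were 4.17% and 3.59%. ICAM1, the ligand of the integrin LFA-1, had a difference of 2.17 and PVRL2 (nectin-2), the ligand of DNAM-1 and TIGIT, one of 1.26. The latter was 0.79 at its lowest, and 1 of the 11 was 2-fold higher with no normalization and with scaling to spike-in controls. LGALS9 (galectin-9) was the lower one, with -1.15. Of the genes that set how long these proteins stay at the surface, MARCH1, the ubiquitin ligase that removes CD86 and MHC class II, read 81.1 on Ctrl and was not well above background on IMQ (6.60) or IMQ+DMD (3.86). The bound on its IMQ minus Ctrl difference was -1.77, and it was -0.86 with normexp background correction. MARCH8, and also CMTM6 and CMTM4, which stabilize PD-L1, were within 2-fold. In the LAMP family, LAMP1 and LAMP2 differed by 0.16 and 0.24, where LAMP3 differed by 3.98, and LAMP5 by -1.17.

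**Figure D4:**
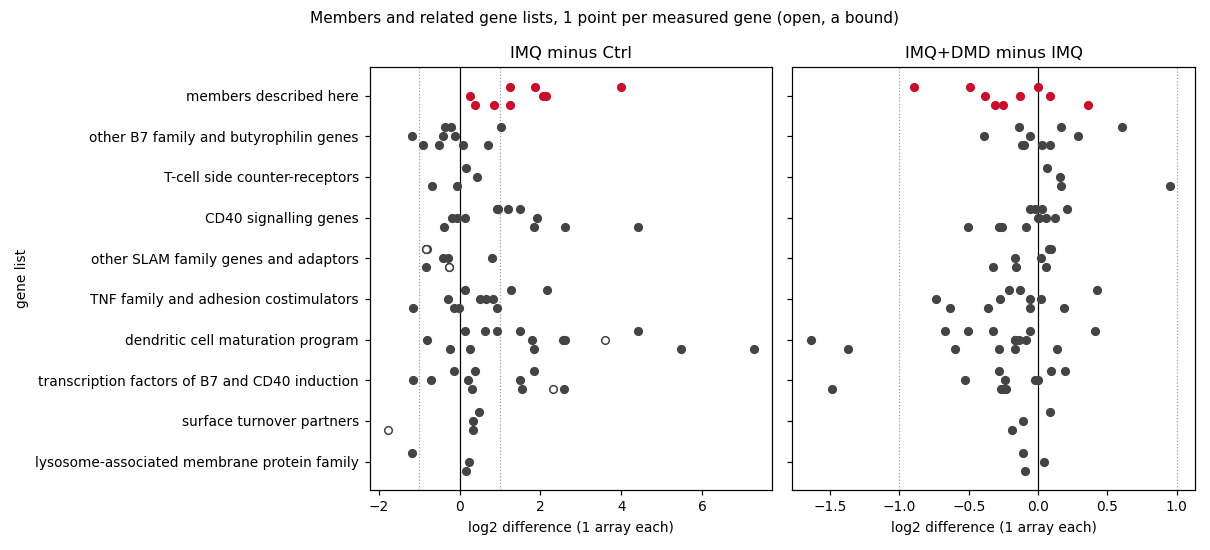
Log2 differences of the measured genes of each list (1 point per gene, 1 array per condition, open points are bounds), with dotted lines at 2-fold. In IMQ minus Ctrl the 9 points of the genes described here lie between 0.25 and 3.98, whereas most points of the other B7 and SLAM families lie below 0.

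Promoter sequence from RefSeq (GRCh38.p14), taken as 300-base windows beginning 250 bases before each start, was at hand for 7 of the 10 genes, with 10 windows in all; CD40, PDCD1LG2, and LAMP3 were not in the table. Both strands were searched for a full-length NF-kB consensus, the shorter NF-kB motif GGAANTCCC, the AP-1 motif TGANTCA, and the interferon-response core, which is a pair of GAAA blocks with a 2-base gap. These were present in 0.191%, 1.85%, 7.71%, and 3.57% of 35116 windows. The windows of the 7 genes held 0 matches to the first 3 motifs. The CD274 window alone held the interferon-response core, as a pair of overlapping matches on the minus strand between bases -208 and -193. This stretch is shown as the only match among these genes (chr9:5450314-5450369, plus strand), with both matches in capitals.
CD274 upstream window: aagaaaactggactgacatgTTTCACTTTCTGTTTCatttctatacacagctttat

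**Figure D5:**
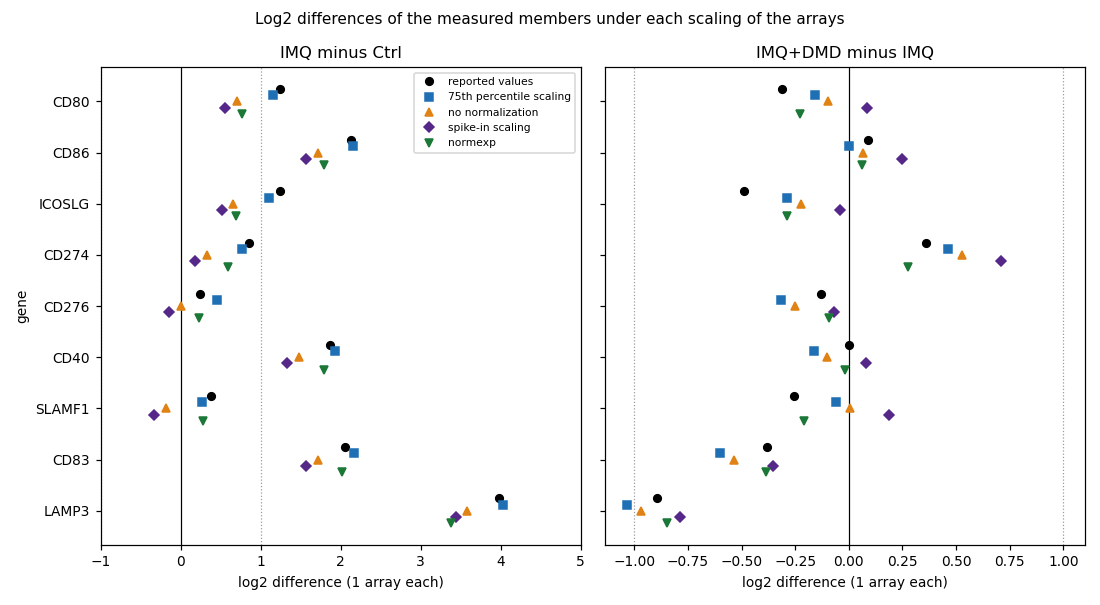
Log2 differences of the 9 measured genes under the reported quantile normalization and 4 other treatments of the arrays (75th percentile scaling, no normalization, scaling to spike-in controls, and normexp background correction), 1 array per condition. LAMP3, CD86, CD83, and CD40 stay to the right of 2-fold in IMQ minus Ctrl under all 5, whereas CD80 and ICOSLG cross it. In IMQ+DMD minus IMQ the points of CD40, CD80, and SLAMF1 fall on both sides of 0.

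How the arrays were put on one scale bore on the size of these differences. The raw median intensity over all probes was 94.49 on Ctrl, 61.8 on IMQ, and 76.37 on IMQ+DMD, and scaling to spike-in controls put the median IMQ minus Ctrl difference of all genes at -0.66. LAMP3, CD86, CD83, and CD40 were at least 2-fold above Ctrl under each alternative tried at that fold. Their lowest IMQ minus Ctrl differences were 3.38, 1.57, 1.57, and 1.33, in the same order. The difference of LAMP3 between IMQ+DMD and IMQ lay between -1.03 and -0.79 over the alternatives, that of CD83 between -0.60 and -0.35, and that of ICOSLG between -0.49 and -0.04. CD274 lay between 0.28 and 0.71 in the same comparison, whereas CD40, CD80, and SLAMF1 took either sign.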

How the data were processed

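Total RNA from 3 samples of THP-1 cells was labeled with Cy3 and hybridized to 3 arrays on 1 slide. The authors deposited the scanner output (Feature Extraction 10.5.1.1) and a table with raw and quantile-normalized intensity per probe. The normalized intensity was used here, converted to log2. The paper calls the experiment RNA sequencing, but the files hold array fluorescence. Each array held 62976 spots, and the raw intensity in the table equaled the scanner signal within 0.1% for the 57901 probes with 1 spot. A total of 0 columns of per-sample values were left unused.

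The brightest probe of a gene (mean log2 over the 3 arrays) stood for it, and all probes of the 10 genes are given. A probe that failed the background mark was raised to a floor, the dimmest value among probes that passed on that array (log2 4.04, 4.57, and 4.08 on Ctrl, IMQ, and IMQ+DMD). With 1 such array the difference is a bound, and with both there is none. Calls were made at 2-fold. Technical SDs came from 300 probes with 10 spots each. With 1 array per condition no test was run. Precision is limited by the number of arrays.

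The gene lists and the 10 genes were chosen with earlier results of these data known. Of the lists, genes past 2-fold in any of the 3 comparisons are named, or the 4 with the largest difference among those above background on both arrays of a comparison where more than 4 passed in it. The genes most like the one with the largest IMQ minus Ctrl difference were also named. The same was planned for the gene with the largest fall, but by the reported values of the brightest probes no measured gene was lower with IMQ. The search was run instead for CD276, which had the smallest difference, and gave ACBD3, NOTCH2, and SNORA70E. BTN3A3, CD68, and LYZ were not found under these names and were not analysed here. Probe coordinates and sequences are those of the scanner files (hg19). The deposited enrichment tests were not used. The alternatives covered normalization, background correction, dim probes, the probe that stands for a gene, and the fold. R 4.3.3 with limma 3.58.1 and Python 3.11.15 (numpy 2.4.6, matplotlib 3.10.9, pandas 2.3.3) were used, and the calling script was tested on simulated data.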

Additional observations from a re-analysis of the deposited data

How the results depend on the processing

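No paired analysis was possible because each condition had 1 array. For the same reason no replicate could be left out. The median IMQ minus Ctrl difference of the 9 measured genes, reported as 1.25, was 0.70 with no normalization, 0.77 with normexp, and 0.55 with scaling to spike-in controls, where the count at least 2-fold higher was 4 in each case in place of 6 (CD80 and ICOSLG were below 2-fold). The median IMQ+DMD minus Ctrl difference, reported as 1.22, was 0.94 with the mean of all probes, 0.85 with no normalization, 0.87 with normexp, and 0.89 with spike-in scaling, and 4 genes in place of 5 were 2-fold higher under each (without CD274). The median IMQ+DMD minus IMQ difference, reported as -0.25, was -0.16 with 75th percentile scaling, -0.10 with no normalization, and 0.081 with spike-in scaling. At 4-fold, 3 genes were higher in IMQ minus Ctrl and 2 in IMQ+DMD minus Ctrl. The count lower in IMQ+DMD minus IMQ, reported as 0, was 1 at 1.5-fold and 1 with 75th percentile scaling (LAMP3 in both), and 1 with no floor for dim probes (PDCD1LG2). With no floor, 1 gene was also lower in IMQ+DMD minus Ctrl (PDCD1LG2). Of 243 values of single genes under the alternatives, 229 kept the reported direction and 14 had the other. Many of the 229 could not have differed. The alternatives for dim probes and the probe by mean linear value returned the reported value for each of these genes. The tally is therefore no measure of robustness.

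Over all genes, the IMQ minus Ctrl counts of 1327 higher and 1142 lower became 1171 and 1478 with 75th percentile scaling, 577 and 5154 with no normalization, and 464 and 7574 with spike-in scaling. Those of IMQ+DMD minus IMQ, 374 and 394, became 1057 and 211, 1368 and 178, and 2571 and 110 in the same order, and 20 and 29 with normexp. Those of IMQ+DMD minus Ctrl, 1024 and 1626, became 510 and 3400 with no normalization and 545 and 3148 with spike-in scaling. The median shift of all genes was -0.51 for IMQ minus Ctrl and -0.32 for IMQ+DMD minus Ctrl with no normalization, and -0.66, 0.25, and -0.29 for IMQ minus Ctrl, IMQ+DMD minus IMQ, and IMQ+DMD minus Ctrl with spike-in scaling. CD80, ICOSLG, SLAMF1, and CD274 were dim enough that repeated spots alone spread by 0.14 to 0.30 in their differences.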
